A study of Mus musculus with 26 samples.

Results

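The genes described here encode the claudins Cldn1, Cldn3 and Cldn4, the MARVEL-domain proteins Ocln, Marveld2 and Marveld3, the tricellular receptor Lsr, and the cytoplasmic plaque proteins Cgn, Tjp1 and Tjp3. They were chosen by name as tight junction and tricellular junction genes, with earlier results of these data known. Counts of these genes beside shares of all features are therefore descriptions and not independent tests of the list. Their identifiers were matched to mouse symbols in the table of raw counts. They are 10 of the 47730 features in the table. All 10 had counts, and all 10 passed the filter on low counts that left 16637 features for testing.

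Tight junctions seal the space between neighbouring epithelial cells near their apical side. Claudins form the strands of the seal, and their mix sets which ions pass; occludin and the other MARVEL proteins sit in the same strands, with tricellulin concentrated where cells meet at corners. Zonula occludens proteins and cingulin lie under the membrane and tie the strands to actin, and in mammary gland the luminal cells carry these junctions. Loss of junction proteins is a classical feature of epithelial-mesenchymal transition.

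The libraries were made from E-A14, a Her2-expressing mouse mammary tumour line that was the only line used, in FVB/N mice 6 to 8 weeks old at implantation. Mice received 100 µg each of anti-CD4 and anti-CD8a antibodies (depleted group), or 100 µg each of rat IgG2a and rat IgG2b (control group), by intraperitoneal injection 2 times a week from 2 weeks before implantation until harvest. Tumours were harvested at day 20 from depleted and at day 47 from control mice, 6 mice each, and Her2-positive cells that carried none of CD90, CD105 and CD45 were separated by EpCAM into a positive and a negative fraction. Each of the 4 tumour groups has 6 libraries. The remaining 2 libraries come from the line in culture, without mouse host or antibody. The treatment, the day and the depth of sequencing move together, so a difference between control and depleted tumours cannot be told apart from one between day 47 and day 20.

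Total counts were 17559520 to 25601999 per library in depleted tumours, 26895429 to 38740143 in control tumours, and 27253363 and 35059744 in the cultures. Epcam, whose protein set the sort, averaged 2437 and 1183 CPM (read counts scaled to equal library size, after TMM) in the EpCAM-positive fractions of depleted and control tumours, and 140 and 1.63 CPM in the EpCAM-negative fractions. The summed level of 13 luminal epithelial markers was 11411 to 12902 CPM in depleted EpCAM-positive, 3751 to 5361 in depleted EpCAM-negative, 3794 to 5675 in control EpCAM-positive and 869 to 1411 in control EpCAM-negative libraries. Of these markers, the milk genes Csn2 and Wap had no count in either depleted fraction. The summed level of 10 fibroblast markers was 78.5 to 250.8 CPM over the depleted libraries and 1229 to 5050 over the control libraries, in both fractions, with Thy1, which encodes CD90, at 0 in the control EpCAM-negative group. The summed level of 12 endothelial markers ranged from 18.8 to 94.8 CPM over the tumour libraries. That of 12 macrophage markers was 20.5 to 38.9 CPM in control EpCAM-negative and 69.8 to 279.6 CPM in the other tumour libraries. The part of these other marker lists in the results below was not tested. Fewer cells of a type and less RNA per cell cannot be told apart in such bulk libraries.

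In control tumours 9 of the 10 genes were lower in EpCAM-negative than in EpCAM-positive cells (edgeR quasi-likelihood test, Benjamini-Hochberg adjusted p below 0.05), against 14.5% of all tested features. None was higher, against 13.3% of features, and Tjp1 did not pass. Every library of the EpCAM-negative group lay below every EpCAM-positive library for these 9 genes, which held for 7.1% of all tested features. The median log2 fold change of the 10 genes was -5.82, beside -0.01 over all features. In depleted tumours 7 of the 10 were lower, against 14.3% of features, and none was higher, against 14.2%. The same 7 had no overlap between the fractions, which held for 8.45% of features. The median was -2.44 beside 0.01 over all features. Cldn1, Tjp1 and Tjp3 did not pass there.

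**Figure D1:**
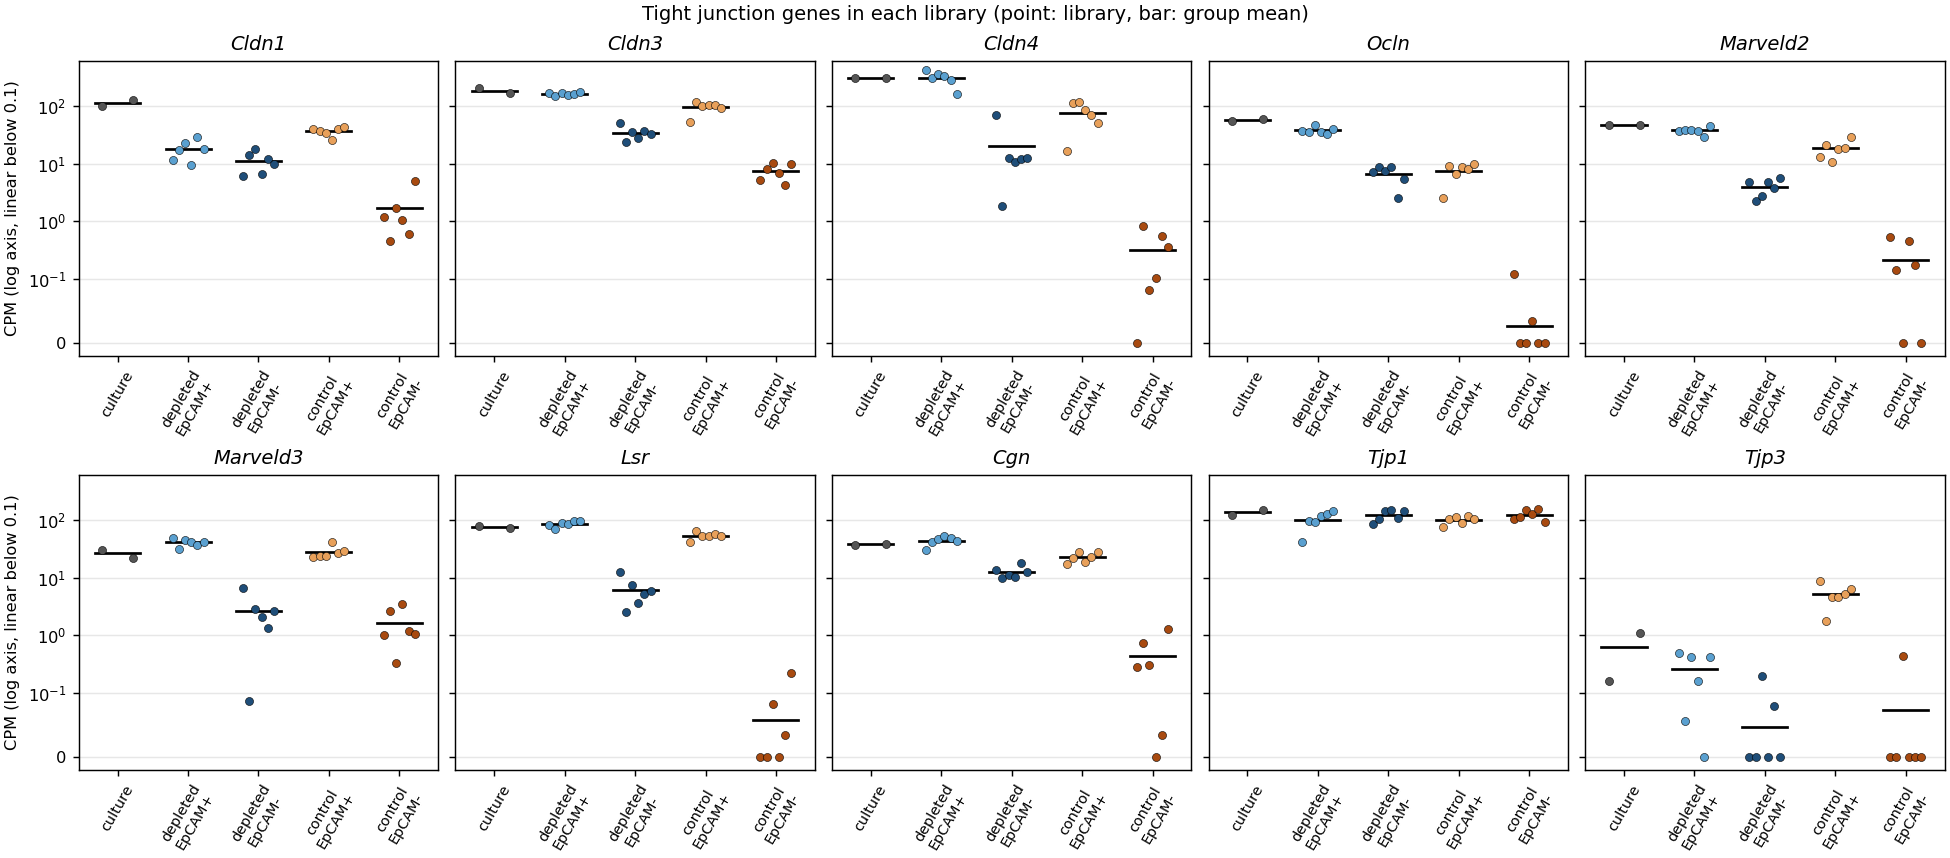
Level of each of the 10 genes in every library, in CPM on an axis that is logarithmic above 0.1 and linear below it. Points are libraries (6 per tumour group, 2 cultures) and bars are group means. For 7 genes every control EpCAM-negative library lies below every other library, while the 4 tumour groups overlap for Tjp1. Against the depleted EpCAM-negative libraries alone, 10.4% of all tested features have this pattern. The share against all other libraries was not counted.

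The sequences in front of the Lsr and Cldn4 genes are shown because only these 2 of the members held matches to both the E-box CACCTG, the site read by Zeb and Snail repressors, and the AP-1 site. Those of Cgn and Tjp1, a gene that fell and one that did not pass, are shown as examples that held neither. Each is the 250 bases before the start site in RefSeq (build GRCm38.p6), written 5′ to 3′ on the strand of the gene. Capitals mark the E-box in either orientation, where the other strand reads CAGGTG, and the AP-1 site TGACTCA, where the other strand reads TGAGTCA. Both kinds overlap at 1 place before Lsr. For Lsr and Tjp1, and not for Cldn4 and Cgn, a stretch just after the RefSeq start was found in no GENCODE M21 transcript of the gene.
Lsr, chr7:30973470-30973719, minus strand: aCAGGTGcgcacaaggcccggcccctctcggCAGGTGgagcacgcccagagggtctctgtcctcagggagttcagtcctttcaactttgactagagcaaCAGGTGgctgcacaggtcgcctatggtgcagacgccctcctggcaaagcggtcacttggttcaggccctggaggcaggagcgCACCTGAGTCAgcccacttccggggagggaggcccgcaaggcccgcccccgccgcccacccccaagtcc
Cldn4, chr5:134946935-134947184, minus strand: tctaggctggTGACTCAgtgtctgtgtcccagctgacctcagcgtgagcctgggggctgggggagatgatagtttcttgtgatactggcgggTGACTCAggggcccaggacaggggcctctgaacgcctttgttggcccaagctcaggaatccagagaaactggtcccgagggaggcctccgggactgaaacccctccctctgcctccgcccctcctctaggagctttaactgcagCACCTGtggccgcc
Cgn, chr3:94786483-94786732, minus strand: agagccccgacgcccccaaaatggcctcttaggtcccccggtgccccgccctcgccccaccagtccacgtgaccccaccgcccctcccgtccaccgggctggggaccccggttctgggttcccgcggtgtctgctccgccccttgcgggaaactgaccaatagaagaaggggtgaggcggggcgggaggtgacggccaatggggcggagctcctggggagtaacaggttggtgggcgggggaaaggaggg
Tjp1, chr7:65371245-65371494, minus strand: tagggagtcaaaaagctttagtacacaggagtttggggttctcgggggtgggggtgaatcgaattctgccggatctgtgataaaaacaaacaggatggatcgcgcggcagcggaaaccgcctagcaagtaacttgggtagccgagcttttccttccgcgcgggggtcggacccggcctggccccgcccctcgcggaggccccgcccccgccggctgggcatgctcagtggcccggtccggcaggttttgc
The stretch before Lsr holds 4 E-box matches and 1 AP-1 match, and that before Cldn4 holds 1 E-box and 2 AP-1 matches. In full windows of 300 bases (250 before and 50 after the start), a second E-box match follows the Cldn4 start. RefSeq windows matched 9 of the 10 genes, and not Marveld3. An E-box was present for 6 of the 9 genes (Cldn3, Cldn4, Ocln, Marveld2, Lsr and Tjp3), where 20.2% of all 32851 windows of that length have one. Cldn1, Cgn and Tjp1 have no such match in these windows. The count is per gene and the share per window: the 9 genes have 12 windows, with 2 each for Ocln, Marveld2 and Tjp3. Their windows held 45.3 to 70.3% G and C, beside a median of 52.7% over all windows, and the shares were not matched for this. The AP-1 site was present for Cldn4 and Lsr, and is in 5.2% of windows. The grainyhead site AACCGGTT was in none of the 9 and in 0.146% of windows. These matches are descriptions of letters, and no binding was measured.

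Among these 3 claudins, Cldn4 had the largest fall between the fractions. Cldn4 is a barrier-forming claudin of many glandular epithelia. Its level in control tumours ran from 16.4 to 116 CPM (median 76.4) in EpCAM-positive and from 0 to 0.835 CPM (median 0.229) in EpCAM-negative libraries. The ranges were far apart, and the 6 EpCAM-negative libraries held 63 counts between them. The pooled ratio was 227-fold, with a 95% counting interval of 177 to 295, or 353-fold without EpCAM-negative library 2. Such intervals cover the counting error of pooled reads and not the spread between libraries. The fitted log2 change was -7.83 ± 0.78 (SE, adjusted p = 1.91e-08), or -8.46 without that library. In depleted tumours Cldn4 ran from 159 to 415 CPM (median 318) in EpCAM-positive and from 1.83 to 70.3 CPM (median 12.2) in EpCAM-negative libraries. Library 1 held the 70.3 CPM, and the next highest was 12.5 CPM. The log2 change there was -3.96 ± 0.57 (adjusted p = 4.89e-06), and -4.99 without that library. Culture levels were 304 and 311 CPM, within the range of depleted EpCAM-positive cells.

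Cldn3, a claudin close to Cldn4 in sequence and also barrier-forming, fell in both treatments but kept a measurable level everywhere. In depleted tumours it was at 150 to 173 CPM (median 164) in EpCAM-positive and 23.6 to 49.6 CPM (median 34.1) in EpCAM-negative cells. In control tumours the values were 52.6 to 115 (median 102) and 4.17 to 10.2 CPM (median 7.39). The 4 tumour groups did not overlap each other, and the cultures, at 165 and 204 CPM, overlapped the depleted EpCAM-positive group. The log2 change between fractions was -3.69 ± 0.21 in control (adjusted p = 9.79e-13) and -2.25 ± 0.20 in depleted tumours (adjusted p = 1.97e-09).

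Cldn1, the claudin that the epidermal barrier requires, had another order of groups. The cultures were highest, at 98.1 and 125 CPM. Control EpCAM-positive cells followed with 25.3 to 43.7 CPM (median 37.6), then depleted EpCAM-positive with 9.54 to 28.4 (median 17.8) and depleted EpCAM-negative cells with 6.00 to 18.1 CPM (median 11). The ranges of neighbours in this order overlapped except at its ends: cultures lay above all tumours, and control EpCAM-negative cells were lowest at 0.445 to 5.02 CPM (median 1.10). Between fractions Cldn1 fell in control tumours (log2 -4.45 ± 0.43, adjusted p = 9.97e-09, and -5.19 without EpCAM-negative library 6). In depleted tumours the difference was -0.69 ± 0.37 and did not pass (adjusted p = 0.178).

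Ocln encodes occludin, the first integral membrane protein found in tight junctions. In depleted tumours it ran from 33.2 to 47.2 CPM (median 35.6) in EpCAM-positive and from 2.54 to 8.71 CPM (median 7.20) in EpCAM-negative cells. Control EpCAM-positive cells had 2.52 to 9.94 CPM (median 8.39), which overlapped the depleted EpCAM-negative group and not the depleted EpCAM-positive one. Control EpCAM-negative cells had 5 Ocln counts in all, 4 of them in library 1, and 4 libraries had none. The cultures, at 54.6 and 58.3 CPM, were above all tumour libraries. The pooled ratio in control tumours was 282-fold (95% counting interval 121 to 869), or 1173-fold without library 1, which leaves 1 count. The fitted log2 change was -7.94 ± 0.51 (adjusted p = 8.53e-12), or -9.44 without library 1. In depleted tumours it was -2.51 ± 0.29 (adjusted p = 1.59e-07).

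Marveld2 encodes tricellulin, which gathers where 3 cells meet. Its levels were 29.3 to 45.1 CPM (median 37.6) in depleted EpCAM-positive, 10.5 to 29.4 (median 18.1) in control EpCAM-positive, 2.23 to 5.72 (median 4.25) in depleted EpCAM-negative and 0 to 0.523 CPM (median 0.157) in control EpCAM-negative cells. Only the 2 EpCAM-positive groups overlapped, by 1 control library, and the cultures (46.1 and 46.5 CPM) lay above all of them. The log2 change between fractions was -6.43 ± 0.43 in control (adjusted p = 1.62e-11) and -3.24 ± 0.33 in depleted tumours (adjusted p = 2.59e-08).

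Marveld3, the third MARVEL protein of tight junctions, changed by nearly equal amounts in both treatments. Its log2 change was -4.12 ± 0.48 in control (adjusted p = 2.49e-07) and -4.01 ± 0.48 in depleted tumours (adjusted p = 2.74e-07). The EpCAM-negative libraries of the treatments overlapped, with 0.327 to 3.48 CPM (median 1.12) in control and 0.0873 to 6.63 CPM (median 2.33) in depleted tumours. The EpCAM-positive libraries also overlapped, with 22.8 to 42.0 (median 25.5) and 31.9 to 49.1 CPM (median 41.9). The cultures, at 22.3 and 30.4 CPM, lay among or just below them.

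Lsr encodes angulin-1, the receptor that recruits tricellulin to tricellular corners. Its values were tight in EpCAM-positive cells, at 69.8 to 97.2 CPM (median 86.7) in depleted and 41.0 to 64 CPM (median 52.6) in control tumours. Depleted EpCAM-negative cells had 2.53 to 12.4 CPM (median 5.59). Control EpCAM-negative cells had 11 counts over 6 libraries, 7 of them in library 6, and 3 libraries had none. No 2 of the 4 tumour groups overlapped, and the cultures, at 71.2 and 79.0 CPM, lay within the depleted EpCAM-positive range. The log2 change in depleted tumours was -3.82 ± 0.27 (adjusted p = 7.92e-11), and that in control tumours, -9.77 ± 0.44, was the largest of the 10 genes (adjusted p = 1.24e-14; -10.84 without library 6).

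Of the plaque proteins, Cgn (cingulin, which binds actin and ZO proteins) fell and Tjp1 (ZO-1, the scaffold that claudins bind directly) did not change detectably. Cgn ran from 29.6 to 53.7 CPM (median 44.8) in depleted EpCAM-positive, 9.82 to 18.1 (median 12.0) in depleted EpCAM-negative, 17.0 to 28.2 (median 22.2) in control EpCAM-positive and 0 to 1.29 CPM (median 0.288) in control EpCAM-negative cells, beside 36.8 and 38.3 CPM in culture. Depleted EpCAM-negative and control EpCAM-positive cells overlapped, and control EpCAM-negative cells were apart from all others. The log2 change was -5.66 ± 0.40 in control (adjusted p = 5.53e-11, or -6.30 without EpCAM-negative library 6) and -1.79 ± 0.31 in depleted tumours (adjusted p = 6.5e-05).

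Tjp1 was at 74.3 to 116 CPM (median 104) in control EpCAM-positive and 92.3 to 156 CPM (median 120) in control EpCAM-negative cells. In depleted tumours it was at 41.0 to 141 (median 106) and 85.1 to 150 CPM (median 126), where the lowest value belonged to EpCAM-positive library 1. All these ranges overlapped with each other, and the cultures had 123 and 152 CPM. The log2 differences, 0.31 ± 0.20 (adjusted p = 0.282) in control and 0.28 ± 0.20 (adjusted p = 0.346) in depleted tumours, did not pass, which does not show that the levels are equal.

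Tjp3 (ZO-3, a ZO protein largely limited to epithelia) was scarce outside control EpCAM-positive cells. There it ran from 1.78 to 8.87 CPM (median 4.89), 1032 counts in all. Depleted EpCAM-positive libraries held 33 counts together, depleted EpCAM-negative 6, the cultures 48 and control EpCAM-negative 16, all of the latter in library 3. The fall in control tumours passed (log2 -5.99 ± 0.99, adjusted p = 4.41e-05; pooled ratio 64.4-fold, 95% counting interval 39.5 to 113), and the other 5 EpCAM-negative libraries had no count (log2 -10.13 without library 3, a fitted value against no counts). In depleted tumours the log2 difference was -2.37 ± 1.12 (adjusted p = 0.122), a comparison limited by the 33 and 6 counts behind it, and it passed without EpCAM-negative library 3 (log2 -3.55, adjusted p = 0.0499). Tjp3 exons overlap those of Apba3 on the opposite strand, whose group means were 37.3 to 55.6 CPM. Without strand information, reads from the shared bases cannot be assigned to either gene. Apba3 had 10752 counts in control EpCAM-negative cells, where Tjp3 had 16, and the effect of the overlap was not tested. Exons of Cldn3 also overlap those of Wbscr25 on the opposite strand (group means up to 2.24 CPM). Those of Lsr overlap exons of Gm17077 and Gm4673, likewise on the opposite strand. Gm4673 had 125 counts in control EpCAM-negative cells, where Lsr had 11.

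**Figure D2:**
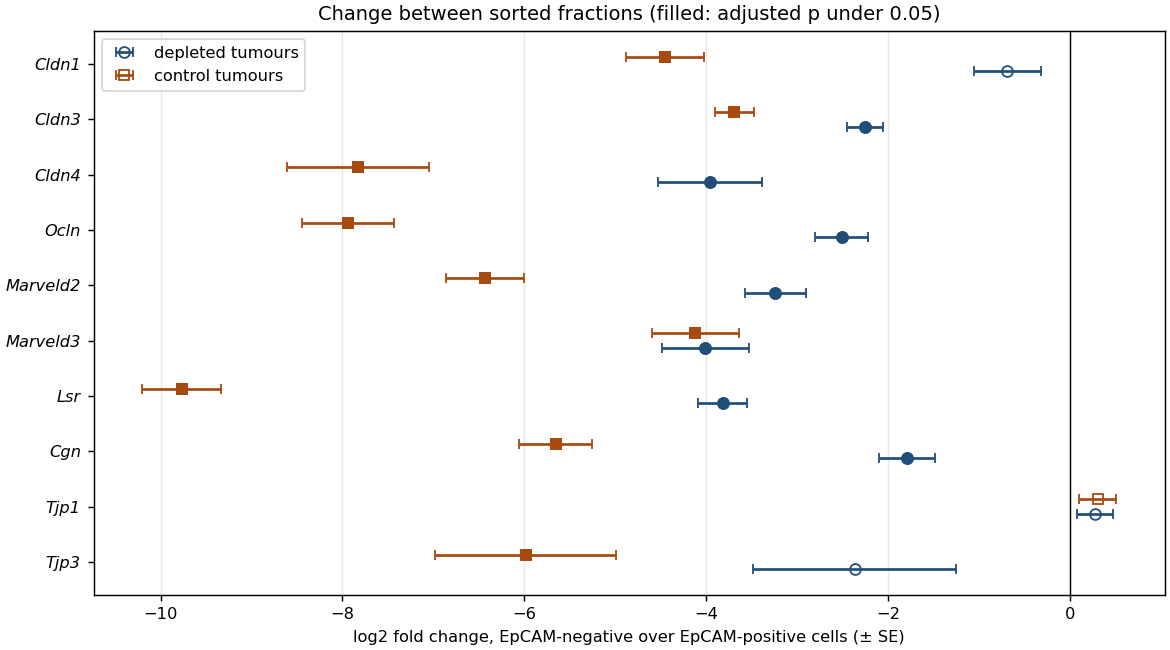
Log2 fold change of each gene between EpCAM-negative and EpCAM-positive cells with its standard error, in control and depleted tumours (6 libraries a group); filled symbols have an adjusted p under 0.05. Cldn1, Cldn4, Ocln, Lsr and Cgn are far apart between treatments and Marveld3 and Tjp1 nearly coincide.

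The change between fractions itself differed between treatments for 7 of the 10 genes, all with a larger fall in control tumours, against 9.33% of all features lower in this test of the interaction and 8.69% higher. The median over the 10 genes was -3.69, beside -0.05 over all features. The differences of the log2 changes, control minus depleted, were -5.95 ± 0.56 for Lsr, -5.43 ± 0.65 for Ocln, -3.87 ± 0.95 for Cldn4 (-2.86 without depleted EpCAM-negative library 1), -3.87 ± 0.49 for Cgn, -3.77 ± 0.55 for Cldn1, -3.20 ± 0.53 for Marveld2 and -1.44 ± 0.27 for Cldn3. Leaving out control EpCAM-negative library 1 gave -6.92 for Ocln, library 2 gave -4.50 for Cldn4, and library 6 gave -7.02 for Lsr, -4.51 for Cgn and -4.50 for Cldn1. The adjusted p values of the 7 ran from 3.36e-08 to 0.00492. Marveld3 (-0.11 ± 0.62, adjusted p = 0.944) and Tjp1 (0.03 ± 0.28, adjusted p = 0.972) did not pass. Tjp3 did not pass either (adjusted p = 0.142), but passed without control EpCAM-negative library 3 (adjusted p = 0.0036).

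Among EpCAM-negative cells, 7 of the 10 genes were lower in control than in depleted tumours, against 21.9% of all features, and none was higher, against 23.2%. The median log2 change was -3.49, beside -0.03 over all features. The log2 change was -7.76 ± 0.51 for Ocln (-9.25 without control library 1), -6.65 ± 0.46 for Lsr (-7.72 without control library 6), -5.91 ± 0.77 for Cldn4 (-4.90 without depleted library 1), -4.82 ± 0.40 for Cgn (-5.46 without control library 6), -4.22 ± 0.43 for Marveld2, -2.75 ± 0.41 for Cldn1 (-3.49 without control library 6) and -2.22 ± 0.20 for Cldn3. Each of these 7 had all 6 control libraries below all 6 depleted ones, a pattern of 10.4% of features. Marveld3 (-0.67 ± 0.48), Tjp1 (0.01 ± 0.20) and Tjp3 (0.67 ± 1.19, or -3.48 without control library 3) did not pass.

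Among EpCAM-positive cells the control tumours were lower for 6 of the 10 genes, against 17.6% of features, and higher for 2, against 22.4%. The log2 change was -2.33 ± 0.28 for Ocln (adjusted p = 2.6e-07), -2.04 ± 0.52 for Cldn4, -1.03 ± 0.30 for Marveld2, -0.95 ± 0.30 for Cgn, -0.78 ± 0.19 for Cldn3 and -0.70 ± 0.24 for Lsr, with adjusted p of 0.00148 to 0.0207 for these last 5. Tjp3 rose by 4.30 ± 0.91 (adjusted p = 0.00043), with every control library above every depleted one, as in 12.5% of features. Cldn3, Cldn4, Ocln, Lsr and Cgn had every control library below every depleted one, as in 9.21% of features. Cldn1 rose by 1.01 ± 0.36 (adjusted p = 0.0278), a call that was lost without depleted library 1 (adjusted p = 0.0629) or 4 (adjusted p = 0.0671). Marveld3 (-0.56 ± 0.41, adjusted p = 0.295) and Tjp1 (-0.02 ± 0.20) did not pass. The summed luminal markers were lower, and the summed fibroblast markers higher, in all of these control libraries than in the depleted ones (ranges above). The luminal list was split: of 12 tested, 4 were lower (Krt8, Krt18, Krt7 and Epcam) and 6 higher (Krt19, Elf5, Csn2, Csn3, Lalba and Prlr), with a median log2 change of 2.34. Of 8 tested fibroblast markers 4 were higher and none lower. The part of these markers was not tested.

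Set against the cultures, depleted EpCAM-positive cells differed in 1 gene, Cldn1, which was lower (log2 -2.63 ± 0.46, adjusted p = 4.85e-05), against 18.6% of features lower and 20.9% higher. The other 9 had log2 differences between -1.27 and 0.64 and did not pass in this fit. With only the compared groups in the edgeR fit, Ocln was also lower (-0.61, adjusted p = 0.00291). Marveld3 was then higher (0.62, adjusted p = 0.0133). In control EpCAM-positive cells 5 genes were lower than in culture and none higher, against 22.4% and 27.8% of features: Ocln (-2.92 ± 0.35), Cldn4 (-2.04 ± 0.65), Cldn1 (-1.62 ± 0.47), Marveld2 (-1.33 ± 0.39) and Cldn3 (-0.96 ± 0.25). With either culture left out 3 of the 10 were lower: Cldn3 and Cldn4 did not pass without culture 1 (adjusted p = 0.0598 and 0.0532), nor Cldn1 and Cldn4 without culture 2 (adjusted p = 0.0654 and 0.0531). The cultures are 2 libraries whose separate growth the labels do not state. Both EpCAM-negative groups had 9 of 10 genes below culture, against 20.6% of features in depleted and 24.2% in control tumours, with Tjp1 the exception in each. None was above culture, against 21.8% and 26.5% of features. The median log2 change was -3.34 in depleted and -6.23 in control EpCAM-negative cells. Tjp3 no longer passed in either when culture 2, which held 43 of the 48 culture counts, was left out (adjusted p = 0.509 and 0.674), and in control tumours it also narrowly missed without EpCAM-negative library 4, 5 or 6 (adjusted p = 0.0518, 0.051 and 0.0509).

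The level that EpCAM-negative cells retained was compared with that of Epcam. In depleted tumours the mean of Epcam in EpCAM-negative cells was 5.76% of that in EpCAM-positive cells, with single libraries at 1.64 to 11.6%. Marveld3 (6.31%), Cldn4 (6.47%) and Lsr (7.12%) lay near this value, although without library 1 Cldn4 retained 3.20% and Epcam 4.59%. Marveld2 retained 10.6%, Ocln 17.6%, Tjp3 17.8% (on 6 counts, and 6.14% without library 3), Cldn3 21%, Cgn 28.9%, Cldn1 62.1% and Tjp1 121%.

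As a test, the log2 level of each gene minus that of Epcam was compared between the fractions of depleted tumours (exact two-sided permutation test over all arrangements of 6 against 6 libraries, smallest p allowed 0.00216, 10 genes, p unadjusted). The shift relative to Epcam was 4.69 for Tjp1, 3.65 for Cldn1, 3.01 for Tjp3, 2.55 for Cgn, 2.06 for Cldn3 and 1.76 for Ocln, each at the smallest p and in 6 of 6 pairs of libraries that share a number. Because the sort selected on EpCAM protein, a gene with no change between the fractions also shifts upward here. Tjp1, whose own change did not pass, has the largest shift. A passing shift thus says only that a gene did not fall by the same factor as Epcam. The value for Tjp3 depends on the prior count added to few reads, and with a prior of 0.5 in place of 2 it was 2.13 and did not pass (exact permutation p = 0.0801). For Marveld2 the shift was 1.08 (exact permutation p = 0.013), and without the libraries numbered 4, or those numbered 5, the p was 0.0476 in each case. After Benjamini-Hochberg adjustment over the 10 genes, this permutation test passed with all libraries (adjusted p = 0.0186). It did not pass without those numbered 4 (adjusted p = 0.0595) or 5 (adjusted p = 0.068). Lsr (0.38, exact permutation p = 0.0584), Cldn4 (-0.30, p = 0.457) and Marveld3 (-0.23, p = 0.887) were not distinguished from Epcam at this spread, but Lsr had a shift of 0.46 without the libraries numbered 4 (exact permutation p = 0.0317).

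The depleted EpCAM-negative libraries varied in this respect. Library 1 had the most Epcam (283.75 CPM) and also the most Cldn4 (70.3), Lsr (12.4), Marveld3 (6.63) and Cldn3 (49.6 CPM). Library 2 had the least Epcam (40.0 CPM) and the least of the same 4 genes, at 1.83, 2.53, 0.0873 and 23.6 CPM. Marveld2 (2.23 CPM) and Cgn (9.82 CPM) were also lowest in library 2, and Tjp3 had no count in it or in several others. The other 6 genes did not have their highest value in library 1. Cldn1 and Tjp1 were lowest there (6.00 and 85.1 CPM), and Ocln was lowest in library 5 (2.54 CPM) and at 8.64 CPM in library 2. In control tumours Epcam retained 0.138%, Lsr 0.107%, Ocln 0.352%, Cldn4 0.430%, Marveld2 1.16%, Tjp3 1.396%, Cgn 1.93%, Cldn1 4.56%, Marveld3 5.78% and Cldn3 7.73%. Several of these means rest on 1 library. Ocln retained 0.0923% without library 1, and Tjp3 had no count without library 3. Without library 6 the shares were 0.0437% for Lsr, 1.18% for Cgn and 2.71% for Cldn1. The order of Lsr, Ocln, Tjp3 and Epcam thus depends on single libraries, and it was not tested.

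**Figure D3:**
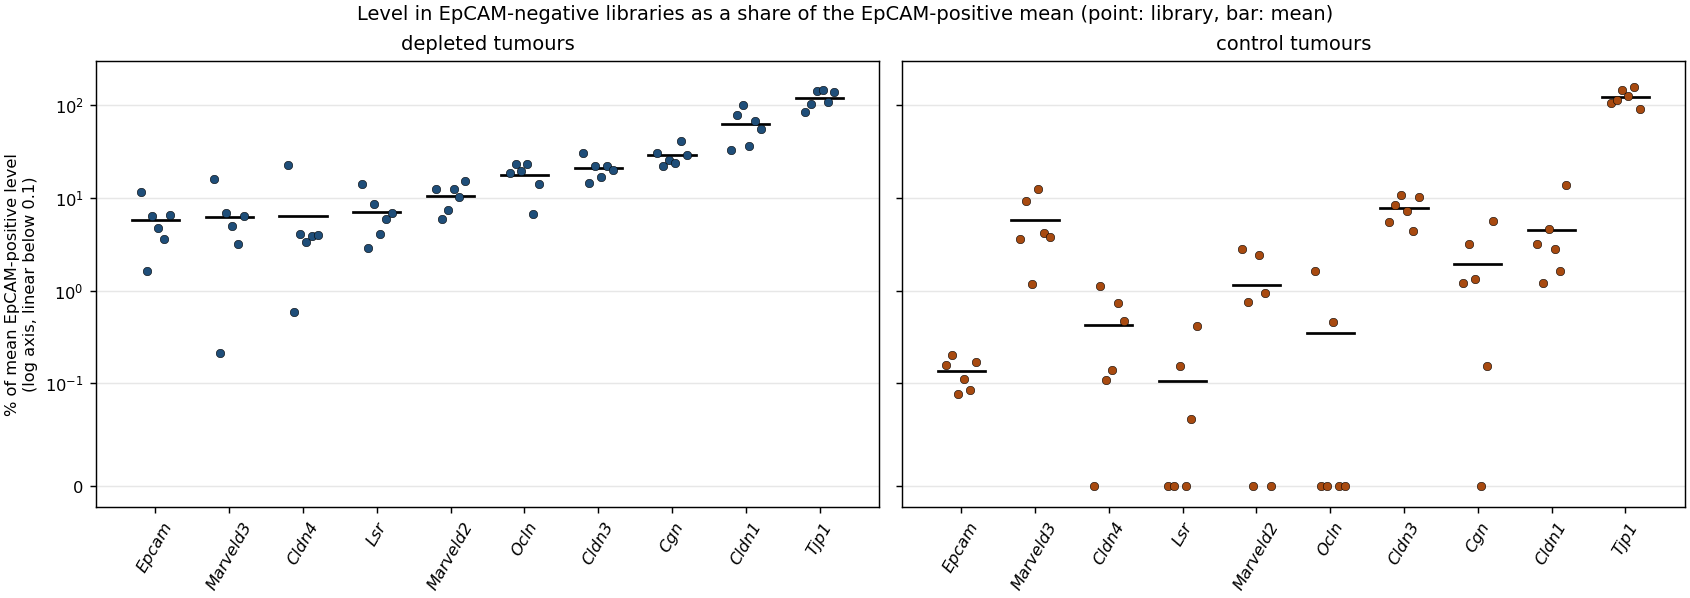
Level in each EpCAM-negative library as a percentage of the mean EpCAM-positive level of the same treatment, for Epcam and 9 genes (Tjp3 is left out for low counts), on an axis that is logarithmic above 0.1% and linear below. Bars are means of 6 libraries; in depleted tumours the genes spread from near Epcam (5.76%) to Tjp1 (121%).

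Levels per kilobase of exon allow the members to be set beside the rest of their families. The 26 claudin genes together gave 521 ± 39.4 CPM per kb in depleted EpCAM-positive cells (mean ± SD, n = 6), 105 ± 23.7 in depleted EpCAM-negative, 217 ± 56.9 in control EpCAM-positive, 22.6 ± 4.91 in control EpCAM-negative cells and 594 ± 18.5 in culture (n = 2). The make-up changed along with the sum. Cldn4 was 32.2 ± 7.35% of the claudin sum in depleted EpCAM-positive and 8.85 ± 8.73% in depleted EpCAM-negative cells, and 17.8 ± 6.55% and 0.805 ± 0.839% in the control fractions.

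Cldn3 had a mean share of 24.7 to 25.6% in 4 of the groups and 35.0 ± 2.67% in control EpCAM-positive cells, whose libraries (31.4 to 38.7%) overlapped no other group. Cldn12, a broadly expressed claudin, made up 4.87% of the sum in control EpCAM-positive and 32.2 ± 3.99% in control EpCAM-negative cells, while its own level differed between these fractions by a log2 change of -0.46 (adjusted p = 0.0295). In depleted EpCAM-positive cells it made up 3.56%, with a mean level of 77.1 CPM beside 30.3 CPM in control EpCAM-negative cells. Cldn9 made up 27.8 ± 6.54% in depleted and 22.7 ± 3.79% in control EpCAM-negative cells, against 6.82% and 4.43% in the EpCAM-positive fractions. Cldn9 and Cldn6 are close paralogs, and reads of the pair may have been split.

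**Figure D4:**
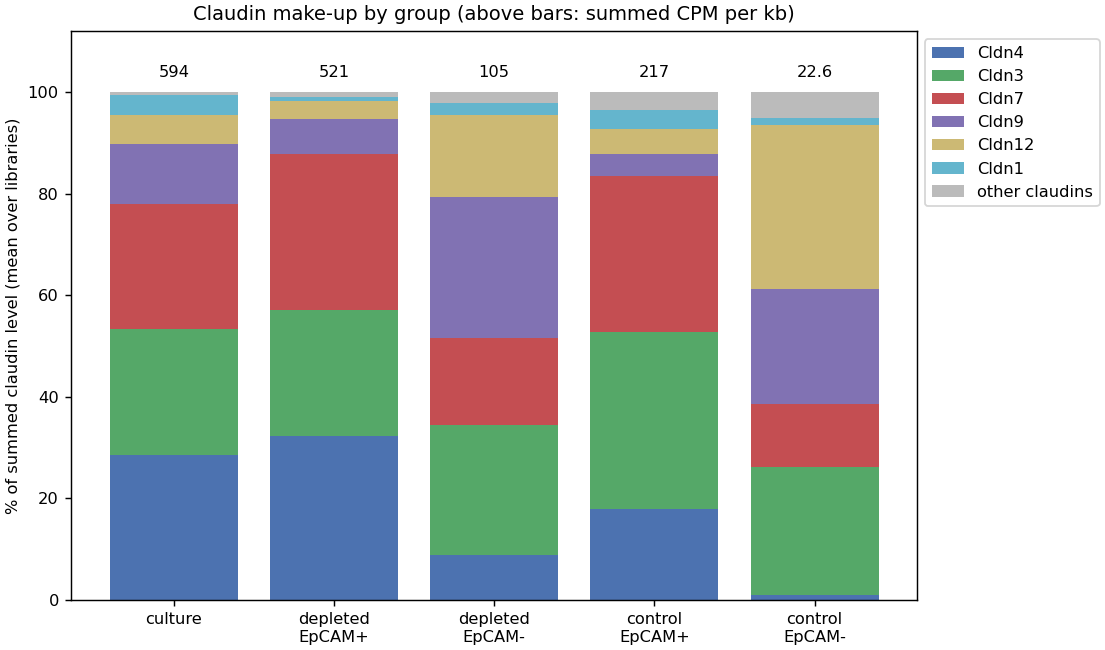
Share of each claudin in the summed claudin level per kilobase, as means over libraries in the 5 groups, with the summed level (CPM per kb) above each bar. Cldn4 shrinks from 32.2% in depleted EpCAM-positive to 0.805% in control EpCAM-negative cells, where Cldn12 holds 32.2%.

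The other families shifted unequally. MARVEL genes summed to 32.5 ± 3.51 CPM per kb in depleted EpCAM-positive and 0.561 ± 0.396 in control EpCAM-negative cells, where Marveld3 made up 88.9% of what was left. Of the angulins, Lsr made up 62.7% in depleted EpCAM-positive and 41.7% in control EpCAM-positive cells, with Ildr1 (angulin-2) nearly all of the remainder. Cgn was 28.2% of the cingulin pair in control EpCAM-positive and 0.700% in control EpCAM-negative cells, with Cgnl1 (paracingulin) as the rest.

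Other tight junction genes from lists of the pathway were read in the same fits. Of 26 other claudin and claudin-domain genes, 13 were tested, and 9 were lower and none higher between the control fractions, with a median log2 change of -3.31. These counts stand beside 14.5% of all features lower and 13.3% higher. In depleted tumours 2 were lower and 1 higher, near the 14.3% and 14.2% of all features. Cldn7, which binds EpCAM in many epithelia, fell in both (log2 -4.57 ± 0.27 in control and -3.13 ± 0.25 in depleted tumours), and the interaction passed (-1.45, adjusted p = 0.00284). Cldn2, a pore-forming claudin, also fell in both (-4.66 ± 0.67 and -2.94 ± 0.64). Cldn8 had 83 counts in control EpCAM-positive cells and none in any other group, at least 27.6-fold above the control EpCAM-negative floor of 3 counts per group.

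Of 12 other membrane proteins, 10 were tested. In control EpCAM-negative cells 6 were lower and 1 higher (median log2 change -1.73), against 14.5% and 13.3% of all features. In depleted ones 5 were lower, against 14.3% of features, and none was higher, against 14.2%. F11r (JAM-A, an immunoglobulin-like adhesion protein) fell by 1.93 ± 0.11 in control and 0.74 ± 0.10 in depleted tumours on the log2 scale. Cxadr, the coxsackievirus and adenovirus receptor, fell by 1.70 ± 0.14 and 2.17 ± 0.14. Ildr1 fell by 6.38 ± 0.45 and 3.74 ± 0.39. Crb3, the apical Crumbs protein, had 1008 counts in control EpCAM-positive and none in control EpCAM-negative cells, at least 336-fold lower. Jam2 rose in control tumours by 1.69 ± 0.21 and had a log2 difference of 0.00 in depleted tumours, with a passing interaction (adjusted p = 0.00015).

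All 26 other plaque and scaffold genes were tested, and 16 did not pass in each treatment. In control EpCAM-negative cells 9 were lower and 1 higher (median -0.01), against 14.5% and 13.3% of all features. In depleted ones 7 were lower and 3 higher, against 14.3% and 14.2%. The genes of this list with the largest falls belong to the apical polarity complexes. Patj fell by 3.24 ± 0.24 in control and 3.38 ± 0.24 in depleted tumours on the log2 scale. Pard6b had no count in control EpCAM-negative cells, at least 598-fold below the 1797 counts of EpCAM-positive cells. Prkcz (atypical protein kinase C zeta) had 859 and 2 counts in the control fractions, a ratio of 429 with a 95% counting interval of 118 to 3548, or 729.7 without EpCAM-negative library 4, which held 1 of the 2. Cgnl1 rose slightly in control (0.32 ± 0.12, adjusted p = 0.0496) and fell in depleted tumours (by 1.10 ± 0.12).

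Transcription and splicing factors known to act on epithelial genes were read beside the junction genes. Of 8 repressors, the control EpCAM-negative cells had 4 higher and 2 lower, against 13.3% and 14.5% of all features. The depleted ones had 5 higher and 1 lower, against 14.2% and 14.3%. Zeb1 rose by 1.74 ± 0.21 in control and 4.22 ± 0.25 in depleted tumours, and its mean was nearly equal in the EpCAM-negative cells of both (84.8 and 86.2 CPM), whereas control EpCAM-positive cells had 25.4 and depleted ones 4.61 CPM. Zeb2 rose by 1.63 ± 0.26 and 2.73 ± 0.27. Snai2 instead fell in control tumours, with a log2 change of -3.005 ± 0.30, and did not pass in depleted ones (adjusted p = 0.905). Of 12 activators and splicing regulators, 9 were lower and none higher in control EpCAM-negative cells, against 14.5% and 13.3% of all features. In depleted ones 10 were lower and 2 (Klf4 and Klf5) higher, against 14.3% and 14.2%. Esrp1, a splicing regulator of epithelia, had 79.8 and 0.267 CPM in the control and 133 and 9.89 CPM in the depleted fractions. Ovol2 had 677 counts in control EpCAM-positive and none in control EpCAM-negative cells, at least 225-fold lower. Between control and depleted EpCAM-positive cells, 4 of these 12 were higher and 1 lower in control, against 22.4% and 17.6% of all features. Ehf, an ETS factor, was among those higher, by 4.31 on the log2 scale (adjusted p = 3.92e-10). Grhl2 was at 108 and 118 CPM there and did not pass (adjusted p = 0.802).

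The 9907 genes that reached 10 CPM in at least 1 group were ranked by how closely their 5 group means followed each member, as the root mean square difference of centred log2 values. Lsr was nearest to Spint1 (0.056), an epithelial protease inhibitor, and then Esrp1 (0.194). Marveld3 was nearest to Esrp2 (0.119), Ocln to Prss22 (0.171), Cldn3 to Phlda2 (0.257), Marveld2 to Bicdl2 (0.260), Cldn1 to Mgam (0.306), Cldn4 to Ap1m2 (0.378) and Cgn to Baiap2l1 (0.407). Tjp1 was nearest to Mapk14 (0.014), as its profile was nearly level, and Tjp3 to Crispld2 (0.463). Among the members themselves the closest were Cldn4 and Lsr (0.618) and then Marveld2 and Cgn (0.658), and the farthest were Cldn4 and Tjp1 (3.81). These are distances over 5 group means and carry no test.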

How the data were processed

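The authors deposited raw read counts per gene for all 26 libraries, made with STAR on mm9, as the submitters' processing notes give it. The counting tool, annotation and strand setting were not given in the sources used here. A second deposited table of normalized values was not used. RNA was amplified from sorted cells with a kit that marks neither strand nor single molecules, per the labels' protocols, so intervals cover counting error only.

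Of the identifiers, 47224 were matched to symbols of GENCODE M21, and exon lengths are from it. Counts were scaled by TMM (edgeR 4.0.16, R 4.3.3), filtered by group, and fitted with 1 coefficient per group over all 26 libraries by the quasi-likelihood test, with Benjamini-Hochberg adjustment over 16637 features and a threshold of 0.05 in 9 comparisons. The standard errors (SE) printed with log2 changes are the absolute log2 change divided by the square root of the F statistic of this test. Near 0 counts they can be smaller than the change from leaving out 1 library, as for Ocln and Lsr between the control fractions. CPM are counts over TMM-scaled library sizes. Ratios of pooled counts have 95% exact intervals, and a floor of 3 counts per group where a group had none. Log2 CPM in distances and in the comparison with Epcam used a prior count of 2. The script was tested on simulated data. No 2 libraries of a group agreed within sampling noise.

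Named are all 10 members, per other list up to 4 genes with the smallest p between the control fractions plus Cldn7, and any factor (1 further gene of the rule is not reported here); Cldn8, Cldn9, Cldn12, Jam2 and Cgnl1 were picked after their values were seen. Members and lists were chosen with earlier results of these data known. Alternatives were DESeq2 1.42.0, other scalings (RLE, upper quartile), no filter, only the compared groups, a replicate block, another prior count and leaving out each library.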

Additional observations from a re-analysis of the deposited data

Results flagged for a closer look

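Of 40 groups of 6 libraries tested for a value far from the rest, 6 had one, where chance gives about 1 in 20 for normally distributed values. The values were CPM without a log scale, some on few counts with libraries at 0, so that rate need not hold here. Cldn4 in depleted EpCAM-negative library 1 was 70.3 CPM, with the next library at 12.5. Cldn1 in control EpCAM-negative library 6 was 5.02 CPM (next 1.69), and Lsr in the same library was 0.225 CPM (next 0.0818), on 7 counts. Ocln in control EpCAM-negative library 1 was 0.123 CPM (next 0.0345), on 4 counts. Tjp3 in control EpCAM-negative library 3 was 0.436 CPM (next 0). Marveld3 in control EpCAM-positive library 4 was 42.0 CPM (next 28.7).

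The change between fractions differed between treatments, by the interaction term of the edgeR fit, for Cldn1 (-3.77), Cldn3 (-1.44), Cldn4 (-3.87), Ocln (-5.43), Marveld2 (-3.20), Lsr (-5.95) and Cgn (-3.87), as log2 differences of control minus depleted.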

How the results depend on the processing

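Over the 90 member results of the 9 comparisons, 88 kept their direction and side of the threshold with DESeq2, 90 with RLE scaling, 88 with upper-quartile scaling, 89 without a filter, 78 of 87 with only the compared groups (3 were not tested there) and 39 of 40 with the replicate block. Signs that turned belonged to differences that did not pass: Tjp1 in control against depleted EpCAM-negative cells (-0.057 with upper quartile, -0.011 with only the compared groups), Tjp1 in EpCAM-positive cells (0.008 without a filter), Tjp1 in the interaction (-0.04 with the replicate block), and Cldn4 in depleted EpCAM-positive cells against culture (0.043 with upper quartile). With only the compared groups in the fit, 2 members were lower and 1 higher in depleted EpCAM-positive cells than in culture. In control EpCAM-positive cells 8 were then lower and 1 higher than in culture. The shares of all features called in these fits are not given here, so these counts have no background beside them. In such fits Marveld3 was lower in control than depleted EpCAM-positive cells (adjusted p = 0.00619). Tjp3 in control EpCAM-negative cells no longer passed against culture (adjusted p = 0.129). Cldn4 in control EpCAM-positive cells against culture (adjusted p = 0.0618) and Tjp3 in control EpCAM-negative cells (adjusted p = 0.0573) did not pass with DESeq2.

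Leaving out 1 library at a time gave 3 to 5 members lower in control EpCAM-positive cells than in culture, beside 2961 to 3895 features. Between control and depleted EpCAM-positive cells 1 to 2 members were higher in control, beside 3464 to 3709 features. Features higher than culture numbered 2164 to 3485 in depleted EpCAM-positive and 2316 to 3493 in depleted EpCAM-negative cells, the lowest without culture 1. Ranges that crossed 0 were, on the log2 scale, -0.077 to 0.079 (Tjp1, EpCAM-negative, control against depleted), -0.185 to 0.092 (Tjp1, EpCAM-positive), -0.084 to 0.193 (Tjp1, interaction), -0.48 to 0.42 (Marveld3, interaction), -0.14 to 0.32 (Marveld3, control EpCAM-positive against culture), -3.48 to 1.85 (Tjp3, EpCAM-negative, control against depleted), -2.06 to 0.65 (Tjp3) and -0.10 to 0.13 (Cldn4, both depleted EpCAM-positive against culture), and -0.33 to 0.12 (Marveld3 relative to Epcam). The cause of these changes was not tested.

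Replicate numbers are shared by the fractions, but the labels do not say that they mark a tumour. Same-numbered libraries correlated by 0.05 to 0.172 in control and 0.017 to 0.047 in depleted tumours, with 4 of 6 pairs over 0.1 and best matched to their own number in control and none over 0.1 in depleted tumours. Since not every pair was over 0.1, the numbers were not taken as pairs; with the replicate block no member's call changed. Of 30 nearest genes, 23 were the same with a prior count of 0.5. Counts under about 20 in a group limit Tjp3, Ocln and Lsr in control EpCAM-negative cells.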
